A study of Mus musculus with 24 samples.

Results

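The genes described here are the neural cell adhesion molecule genes Ncam1 and Ncam2, the polysialyltransferase genes St8sia2 and St8sia4, and the L1 family genes L1cam, Nrcam, Chl1 and Nfasc. They were chosen by symbol, and all 8 were found among the 22667 genes of the expression table. Their 48 exon events in the splicing table were taken with them.

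NCAM is a surface protein of the immunoglobulin superfamily that mediates adhesion between neural cells. The enzymes made by St8sia2 and St8sia4 attach long chains of polysialic acid to it, which weaken adhesion and mark immature, migrating neurons. L1CAM, NrCAM, CHL1 and neurofascin are related adhesion proteins of growing axons whose cytoplasmic tails bind ankyrins, and NrCAM and neurofascin also assemble the axon initial segment and the node of Ranvier. Several of these adhesion genes include short exons in neurons that other cells skip.

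The study asked how a slow RNA polymerase II affects neural differentiation, and compared wild-type (WT) mouse embryonic stem cells (ESCs) with slow/slow ESCs, in which both copies of Polr2a, the gene of the largest polymerase subunit, carry R749H. Poly(A)+ RNA was sequenced at 4 stages, with 3 samples of each genotype per stage and 24 in all. Each genotype came from 1 ESC line, and the replicates were separate differentiations, so a genotype difference is a difference between these lines. Total counts ran from 32974432 to 104466886 per library.

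ESCs were grown in 2i medium with LIF. Neural progenitor cells (NPCs) were taken on day 7 of differentiation. PSA-NCAM+ cells were purified on day 10 with beads against polysialylated NCAM. Neurons were replated on day 7 and kept for 14 days more. WT cultures were plated at 10000 and slow/slow cultures at 30000 cells per cm2 for the NPC and PSA-NCAM+ samples, so that plating density and genotype cannot be told apart there. The neurons were replated from day 7 cultures whose first plating density the labels do not give. The same may therefore hold for the neurons.

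The sort rests on the product of 3 of the 8 genes. Ncam1 makes the protein, and St8sia2 and St8sia4 make its polysialic acid. Values of these 3 genes in PSA-NCAM+ cells against NPCs are therefore given without a test.

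The exons that distinguish the stages and genotypes below are mostly very short, and their sequences are shown first. Exon bases are in capitals and 12 bases of each neighbouring exon are in lower case, from spliced GENCODE M21 (GRCm38) transcripts, 5′ to 3′ on the gene's strand. Of the 48 exon events, 34 matched this annotation by exon length and both intron lengths, 5 by 1 intron length and 9 not at all. The Nfasc and the first 3 Nrcam lines are exons called between WT and slow/slow neurons. The 12-nt exons of Nrcam and L1cam are shown for their likeness, and the other L1cam and Ncam1 exons for their values over the stages.
Nfasc, 15 nt: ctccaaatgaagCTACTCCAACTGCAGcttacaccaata
Nrcam, 30 nt: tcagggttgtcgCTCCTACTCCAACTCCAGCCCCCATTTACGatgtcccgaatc
Nrcam, 36 nt: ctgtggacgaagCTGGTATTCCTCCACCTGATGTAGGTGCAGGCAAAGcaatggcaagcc
Nrcam, 18 nt: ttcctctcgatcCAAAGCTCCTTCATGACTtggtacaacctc
Nrcam, 12 nt: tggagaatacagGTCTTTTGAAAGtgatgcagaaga
L1cam, 12 nt: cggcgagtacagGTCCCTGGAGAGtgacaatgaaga
L1cam, 15 nt: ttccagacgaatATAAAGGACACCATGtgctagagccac
Ncam1, 15 nt: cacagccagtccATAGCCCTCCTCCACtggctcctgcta
Ncam1, 3 nt: gccctcctccacAAGgggaacccagtg
Ncam1, 30 nt: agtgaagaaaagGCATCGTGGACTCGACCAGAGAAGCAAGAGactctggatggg

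The 12-nt exons of Nrcam and L1cam share 8 of their 12 bases, and 25 of 36 with the flanks. In mm9, the build of the splicing table, they lie at chr12:45698769-45698780 and chrX:71100991-71101002. The Nfasc 15-nt exon lies at chr1:134489928-134489942. The Nrcam exons of 18, 30 and 36 nt lie at chr12:45636044-45636061, chr12:45667827-45667856 and chr12:45679132-45679167. The L1cam 15-nt exon lies at chrX:71112361-71112375. The Ncam1 exons of 15, 3 and 30 nt lie at chr9:49349993-49350007, chr9:49340079-49340081 and chr9:49358645-49358674. The 3-nt exon was matched by 1 intron length. Nrcam is on the plus strand and the other 3 genes are on the minus strand. Of the 48 exon events, 37 have a length divisible by 3.

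In neurons every one of the 8 genes was expressed far above the level in NPCs, in both genotypes. Levels are CPM, that is, counts scaled by library size with TMM factors. Ncam1 was 11.4, 12.2 and 12.2 CPM in WT NPCs and 352, 346 and 341 CPM in WT neurons, a log2 difference of 4.86 ± 0.14 (SE, edgeR adjusted p = 5.83e-17). St8sia2 was 1.14, 1.71 and 1.75 CPM in WT NPCs and 321, 300.2 and 309 CPM in WT neurons, a log2 difference of 7.64 ± 0.28 (edgeR adjusted p = 1.64e-15). L1cam was 4.76, 4.38 and 4.51 CPM in WT NPCs and 377, 342 and 347 CPM in WT neurons, a log2 difference of 6.29 ± 0.19 (edgeR adjusted p = 1.62e-16). The neuron and NPC libraries lie far apart for each of these genes. Ncam2 had no count in any WT NPC library and 27.1 to 29.9 CPM in WT neurons, at least 541-fold higher, taking 3 counts per library as the limit.

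All 8 genes rose from NPCs to neurons in WT, where 41.4% of the 16627 genes tested rose, and all 8 rose in slow/slow, where 38.4% rose. The low genes, Ncam2 above all, passed the filter on low counts through the neuron libraries. The rise ranged from 3.68 log2 units (Nfasc) to 9.79 (Chl1) among the other 7 genes in WT. Within slow/slow, the rise ran from 3.07 (Nfasc) to 7.76 (Chl1), with 3.16 for Ncam1, 4.86 for St8sia2 and 4.89 for L1cam. In bulk samples such as these, fewer cells of a type and less RNA per cell cannot be told apart.

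**Figure D1:**
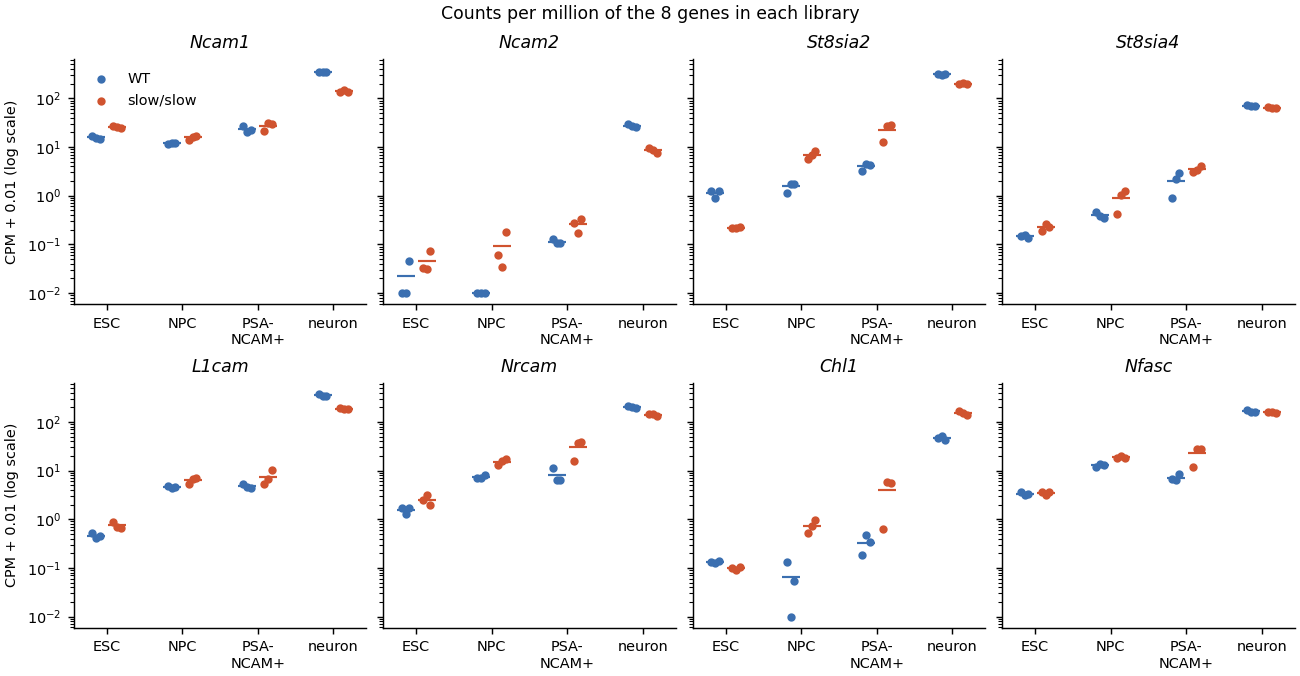
CPM plus 0.01 (log axis) of each gene in the 24 libraries, by stage and genotype, with points for libraries and lines for group means. All 8 genes are highest in neurons, Ncam1 is lower in slow/slow than in WT neurons (134 to 148 against 341 to 352 CPM), and Chl1 is higher.

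Levels between genes can be compared only per length, in the authors' mean RPKM, which has no replicate spread. In WT neurons Ncam1 was highest at 102.5 RPKM, followed by L1cam at 70.2, St8sia2 at 58.1, Nrcam at 26.9, Nfasc at 17.0, St8sia4 at 13.01, Ncam2 at 7.82 and Chl1 at 6.03. In slow/slow neurons the order was Ncam1 at 45.4, St8sia2 at 41.0, L1cam at 40.6, Chl1 at 21.8, Nrcam at 20.4, Nfasc at 17.7, St8sia4 at 13.02 and Ncam2 at 2.66. Chl1 was thus listed last in WT but not in slow/slow, while neighbours such as St8sia2 and L1cam, or Chl1 and Nrcam, in slow/slow cannot be put in order without a spread. St8sia2 was above St8sia4 in neurons of both genotypes.

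From ESCs to NPCs the genes did not move together. In WT, L1cam rose by 3.31 ± 0.22, Nrcam by 2.22 ± 0.29, Nfasc by 1.95 ± 0.21 and St8sia4 by 1.52 ± 0.52 (log2, SE; the highest edgeR adjusted p was 0.0154). Ncam1 fell, from 14.8 to 16.7 CPM in WT ESCs to 11.4 to 12.2 CPM in WT NPCs (log2 difference -0.39 ± 0.12, edgeR adjusted p = 0.00863). That is 4 of 8 genes higher and 1 lower, where 34% of all genes tested rose and 31.6% fell. In slow/slow, 6 of 8 rose and Ncam1 fell (log2 difference -0.71 ± 0.12, edgeR adjusted p = 3.94e-05), where 33.9% of all genes rose and 28.4% fell.

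In ESCs the genotypes differed in Ncam1 and St8sia2. Ncam1 was 16.7, 15.5 and 14.8 CPM in WT and 26.8, 25.3 and 24.5 CPM in slow/slow, a log2 difference of 0.71 ± 0.12 (edgeR adjusted p = 0.000107). St8sia2 was 1.25, 0.889 and 1.22 CPM in WT and 0.204, 0.205 and 0.217 CPM in slow/slow, a log2 difference of -2.45 ± 0.41 (edgeR adjusted p = 8.87e-05). The libraries of the genotypes did not overlap for either gene. St8sia2 rested on 7 to 10 counts per slow/slow library. These are 1 gene higher and 1 lower of 8, where 18.5% of all genes were higher and 21.9% lower. L1cam and Nrcam were 1.61-fold and 1.63-fold higher in slow/slow and missed the threshold (edgeR adjusted p = 0.0572 and 0.0742), and both passed it in DESeq2 and with the spread of the ESC samples alone, both of which called 4 of 8 genes.

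In NPCs all 8 genes were higher in slow/slow than in WT, where 29.3% of all genes tested were higher. St8sia2 reversed its position, with 1.14, 1.71 and 1.75 CPM in WT and 5.53, 6.85 and 8.40 CPM in slow/slow (log2 difference 2.15 ± 0.24, edgeR adjusted p = 4.93e-07). The genotype difference of St8sia2 changed by 4.60 ± 0.47 log2 units between ESCs and NPCs (edgeR interaction adjusted p = 1.02e-06), the only one of 8 genes called for this change, where 13.6% of all genes were called positive. Nrcam was 6.93, 7.05 and 7.90 CPM in WT and 13.2, 15.5 and 17.2 CPM in slow/slow (log2 difference 1.07 ± 0.25, edgeR adjusted p = 0.00137). Ncam1, Nfasc and L1cam were 1.31-fold, 1.45-fold and 1.38-fold higher. Chl1 had 0 to 6 counts per WT library and 30 to 39 per slow/slow library, and Ncam2 had no counts in WT and 1 to 7 in slow/slow. St8sia4 overlapped between the genotypes, at 0.345 to 0.458 CPM in WT and 0.401 to 1.21 CPM in slow/slow (edgeR adjusted p = 0.0239).

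The calls of St8sia4, L1cam and Nfasc in NPCs rested on single libraries. Without slow/slow replicate 2, all 3 missed the threshold, at edgeR adjusted p between 0.0609 and 0.0806, and 5 of 8 genes were called. St8sia4 also missed it without WT replicate 2, WT replicate 3 or slow/slow replicate 3, L1cam without WT replicate 2 or slow/slow replicate 3, and Nfasc without WT replicate 1.

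**Figure D2:**
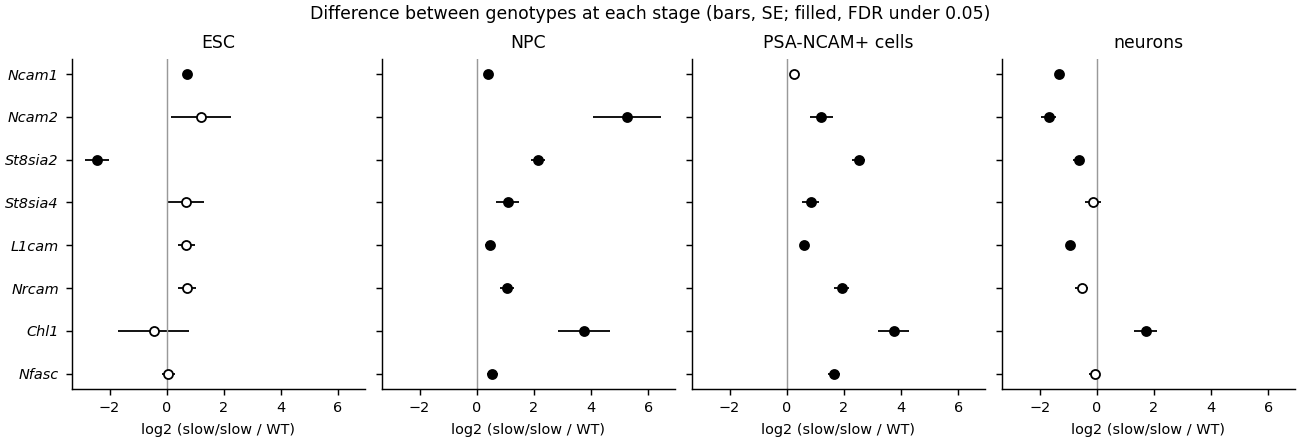
Log2 difference between slow/slow and WT for each gene at each stage, with bars for the SE and filled points for an edgeR adjusted p under 0.05. Every gene lies to the right of 0 in NPCs and PSA-NCAM+ cells, the place of Ncam2 in NPCs depends on the prior count because WT had none, and in neurons Chl1 alone was called higher (1.72) while Ncam1, Ncam2, L1cam and St8sia2 were called lower.

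Markers of cell identity moved with genotype at these stages. The summed level of 5 pluripotency markers was 1887 to 1961 CPM in WT NPCs and 1114 to 1232 CPM in slow/slow NPCs. Of these markers 4 were called lower, while Pou5f1, the largest, was not called and had a higher mean in slow/slow (638.7 in WT and 735.9 CPM). The summed level of 5 neuron markers was 80.6 to 90.1 CPM in WT NPCs and 230 to 266 CPM in slow/slow NPCs. Of these markers 3 were called higher, and Stmn2 was the largest (mean 64.9 in WT and 147.5 CPM in slow/slow). The sum was higher still in ESCs, at 198.5 to 243.4 CPM in WT and 309 to 369.7 CPM in slow/slow, so it does not measure neurons alone. The summed level of 4 muscle markers was 82.2 to 87.2 CPM in WT NPCs and 13.8 to 15.95 CPM in slow/slow NPCs. That sum is nearly all Des (mean 84.1 in WT against 11.8 CPM), whereas Myod1 and Myh3 were higher in slow/slow (0.0541 to 0.327 CPM and 0.951 to 2.42 CPM) and Myog was not called. Their part in the differences was not tested.

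The purified PSA-NCAM+ cells held little mRNA of the antigen genes compared with neurons. Ncam1 was 27.01, 19.98 and 21.9 CPM in WT and 20.9, 31.6 and 29.1 CPM in slow/slow PSA-NCAM+ cells, against 341 to 352 CPM in WT neurons. St8sia2 was 3.23, 4.47 and 4.28 CPM in WT and 12.8, 26.5 and 28.7 CPM in slow/slow. St8sia4 was 0.891, 2.22 and 2.90 CPM in WT and 3.04, 3.35 and 4.12 CPM in slow/slow. All 3 genes were above their NPC levels in both genotypes, with Ncam1 1.92-fold and 1.75-fold, St8sia2 2.56-fold and 3.31-fold, and St8sia4 5.05-fold and 4.25-fold in WT and slow/slow. As the sort used their product, these are descriptions.

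The marker levels of the sorted cells did not match those of neurons. The 5 pluripotency markers summed to 1295 to 1779 CPM in WT and 678 to 705 CPM in slow/slow PSA-NCAM+ cells. The 5 neuron markers summed to 68.1 to 86.4 CPM and 200 to 486 CPM, against 2426 to 2677 CPM in WT and 1751 to 1938 CPM in slow/slow neurons. The lowest of them, Snap25 and Rbfox3, averaged 0.319 and 0.268 CPM in WT PSA-NCAM+ cells, and 2.63 and 0.664 CPM in slow/slow ones. The highest, Stmn2 and Tubb3, averaged 51.8 and 19.95 CPM in WT and 229 and 126 CPM in slow/slow. The 4 neural progenitor markers summed to 195 to 254 CPM in WT and 447 to 588 CPM in slow/slow. All 4 were called higher in slow/slow, where 28.6% of all genes were.

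Of the 5 genes outside the antigen, Ncam2 rose and Nfasc fell from NPCs to PSA-NCAM+ cells in WT, where 21.8% of all genes rose and 19.5% fell. Ncam2 had no count in WT NPCs and 5 to 10 counts per WT PSA-NCAM+ library. That is at least 2.04-fold higher, taking 3 counts per library as the limit. Since it passed the filter on low counts through the neuron libraries, its rise is a description. Nfasc went from 11.9 to 13.7 CPM to 6.44 to 8.47 CPM (log2 difference -0.85 ± 0.20, edgeR adjusted p = 0.00217). In slow/slow, Ncam2, Nrcam and Chl1 rose, where 22.5% of all genes rose. Nrcam and Chl1 overlapped between these groups because slow/slow replicate 1 stood apart. It held 15.6 CPM of Nrcam and 0.613 CPM of Chl1, against 37.5 and 38.3 CPM and 5.83 and 5.56 CPM in the other replicates, and its neuron markers summed to 200 CPM against 412 and 486 CPM. Without it, L1cam and Nfasc rose as well and 5 of 5 were called. Ncam2, on 1 to 29 counts per library, missed the threshold without slow/slow NPC replicate 1 (edgeR adjusted p = 0.0664). With the spread taken from these NPC and PSA-NCAM+ samples alone, none of the 5 was called in slow/slow, and the adjusted p of the 3 genes ran from 0.0772 to 0.124.

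Between genotypes, 7 of 8 genes were higher in slow/slow PSA-NCAM+ cells, where 28.6% of all genes tested were higher. The cells of both genotypes had been sorted on the product of Ncam1, St8sia2 and St8sia4. Values of these 3 genes therefore come from selected cells, and the effect of the sort on them was not tested. The 5 genes outside the antigen were all among the 7. St8sia2 was 5.73-fold higher (log2 difference 2.52 ± 0.22, edgeR adjusted p = 1.73e-08). Nrcam was 11.2, 6.34 and 6.53 CPM in WT and 15.6, 37.5 and 38.3 CPM in slow/slow (log2 difference 1.92 ± 0.25, edgeR adjusted p = 2.70e-06). Nfasc was 6.58, 6.44 and 8.47 CPM in WT and 11.9, 27.6 and 28.2 CPM in slow/slow (log2 difference 1.66 ± 0.20, edgeR adjusted p = 9.44e-07). Chl1 was 0.174, 0.467 and 0.326 CPM in WT and 0.613, 5.83 and 5.56 CPM in slow/slow (log2 difference 3.74 ± 0.55, edgeR adjusted p = 9.75e-06). Only slow/slow replicate 1 came near the WT libraries in these genes.

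L1cam, St8sia4 and Ncam2 were 1.52-fold, 1.78-fold and 2.31-fold higher. The L1cam libraries overlapped, with 5.25 CPM in slow/slow replicate 1 and 5.40 CPM in WT replicate 1. Ncam1 was not called (1.18-fold, edgeR adjusted p = 0.0869). Same-numbered WT and slow/slow samples deviated together at this stage, and a fit blocked on that number called these 7 genes too. Without slow/slow replicate 1 or WT replicate 1, Ncam1 passed too (log2 difference 0.42 and 0.38, edgeR adjusted p = 0.000618 and 0.0125). St8sia4 missed the threshold without WT replicate 1 or slow/slow replicate 3 (edgeR adjusted p = 0.0986 and 0.0619), and Ncam2 without slow/slow replicate 3 (0.0884). With the spread of the PSA-NCAM+ samples alone, 4 of 8 were called, and L1cam, St8sia4 and Ncam2 were not. The share of all genes called in that fit is not given, so this count is a description.

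In neurons the adhesion genes parted. Ncam1 was 352, 346 and 341 CPM in WT and 134, 148 and 138 CPM in slow/slow (log2 difference -1.31 ± 0.12, edgeR adjusted p = 2.43e-08). Ncam2 was 29.9, 27.1 and 25.7 CPM in WT and 9.40, 8.61 and 7.59 CPM in slow/slow (log2 difference -1.69 ± 0.26, edgeR adjusted p = 2.83e-05). L1cam was 377, 342 and 347 CPM in WT and 194, 185 and 182 CPM in slow/slow (log2 difference -0.93 ± 0.15, edgeR adjusted p = 4.07e-05). The WT and slow/slow libraries lay apart in all 3 genes.

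Among the polysialyltransferases, St8sia2 was 321, 300.2 and 309 CPM in WT and 197, 207 and 195 CPM in slow/slow neurons (log2 difference -0.64 ± 0.20, edgeR adjusted p = 0.0122). St8sia4 was 71.8, 68.9 and 69.2 CPM in WT and 64.7, 63.6 and 62.8 CPM in slow/slow and was not called (log2 difference -0.14 ± 0.26). Chl1 went the other way, with 45.9, 50.5 and 42.3 CPM in WT and 169.7, 149 and 137 CPM in slow/slow (log2 difference 1.72 ± 0.41, edgeR adjusted p = 0.00140). Nrcam was 197 to 209 CPM in WT and 133 to 143 CPM in slow/slow and missed the threshold (log2 difference -0.54 ± 0.24, edgeR adjusted p = 0.0674), although the libraries did not overlap. Nfasc did overlap, at 159 to 174 CPM and 156 to 160.4 CPM.

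Thus 4 of 8 genes were lower and 1 was higher in slow/slow neurons, where 28.4% of all genes tested were lower and 23.4% higher. The 5 neuron markers summed to 2426 to 2677 CPM in WT and 1751 to 1938 CPM in slow/slow neurons, 4 neural progenitor markers to 976 to 1163 CPM and 1162 to 1313 CPM, and 4 astrocyte markers to 30.8 to 39.4 CPM and 9.64 to 12.2 CPM. Of the astrocyte markers, Aldh1l1, which makes up most of the sum (mean 31.95 in WT against 7.28 CPM), and Gfap (1.57 and 0.139 CPM) were lower in slow/slow, Aqp4 (1.53 and 3.50 CPM) was higher, and S100b was too low to test. Of the neuron markers, 4 were lower, and Tubb3 was not called, with a higher mean in slow/slow (928 in WT and 1191 CPM). Of the progenitor markers, 3 were higher, and Fabp7, the largest, was not called (mean 676 in WT and 625.5 CPM in slow/slow). The part of these differences in the gene changes was not tested.

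The change of the genotype difference between NPCs and neurons was tested directly. It was called negative for 6 of 8 genes, where 30.4% of all genes tested were called negative. It was -1.69 ± 0.17 for Ncam1, -2.78 ± 0.32 for St8sia2, -1.39 ± 0.23 for L1cam and -1.60 ± 0.35 for Nrcam (log2, SE; the highest edgeR adjusted p of these 4 was 0.000653). Ncam2 was called as well, with no WT counts in NPCs. St8sia4 was called (-1.22 ± 0.47, edgeR adjusted p = 0.0351) but missed the threshold without any 1 of 10 of the 12 libraries, with upper-quartile scaling too. The estimates of Chl1 and Nfasc were negative too (-2.03 ± 1.08 and -0.61 ± 0.27, edgeR adjusted p = 0.116 and 0.0648). These 2 genes were not called, except with the spread of these NPC and neuron samples alone. From NPCs to PSA-NCAM+ cells, the genotype difference of Nfasc became larger (1.12 ± 0.28 log2 units, edgeR adjusted p = 0.0105), where 7.52% of all genes were called positive and 7.04% negative. Ncam2 was called as well (edgeR adjusted p = 0.0498), but with no count in WT NPCs the direction of its change depends on the prior count and is not given. Neither was called with the spread of the samples of this step alone.

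Splicing of these genes could be followed before the neuron stage almost only in Ncam1, since the other genes gave too few reads. Inclusion is given as percent spliced in (PSI), from reads that span exon junctions. The exon of 801 nt, at chr9:49314958-49315758 (mm9), adds the long cytoplasmic part of the largest NCAM isoform. Its PSI was 5.1, 11.1 and 6.5 in WT NPCs and 70.9, 71.1 and 72.4 in WT neurons. In slow/slow it was 3.3, 12.1 and 22.4 in NPCs and 54.8, 55.6 and 57.4 in neurons. The neuron and NPC libraries did not overlap in either genotype.

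The 15-nt exon of Ncam1 was at 0 in all 6 NPC libraries, and reached 14.2, 14.6 and 14.6 in WT neurons and 17.0, 23.9 and 17.99 in slow/slow neurons. The 3-nt exon went from 96.9, 89.0 and 94.0 to 23.8, 26.6 and 25.1 in WT, and from 100.0, 88.8 and 90.3 to 25.2, 29.2 and 25.8 in slow/slow. The table also lists the same 3 additional bases as an alternative acceptor site of the following exon, used at 92.9% in WT NPCs and 22.5% in WT neurons, and the 2 events cannot be told apart here. The 30-nt exon of Ncam1, known as VASE, stayed between 4.0 and 18.8 in all 24 libraries.

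**Figure D3:**
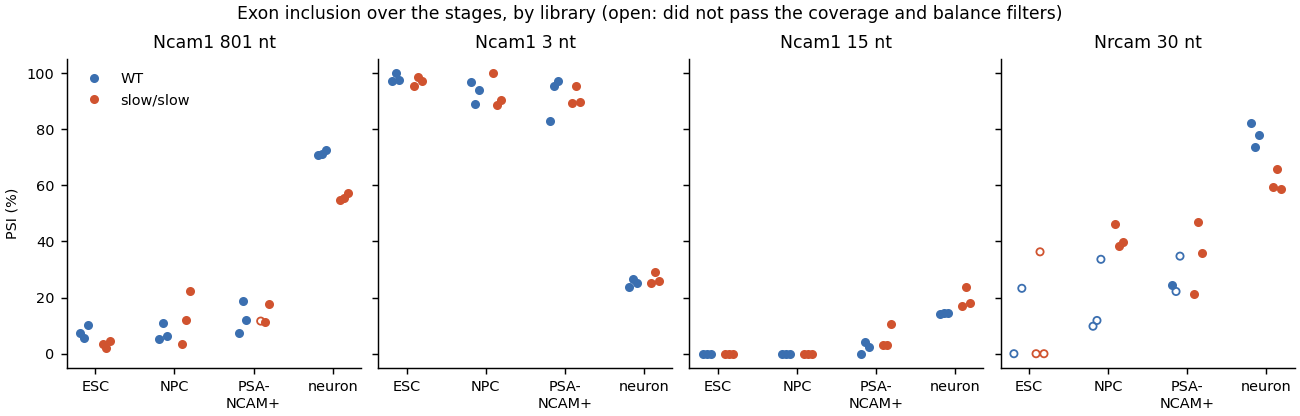
PSI of 3 Ncam1 exons and of the Nrcam 30-nt exon in each library, by stage and genotype, with open points for libraries that did not pass the coverage and balance filters. The Ncam1 801-nt exon is at 2.1 to 22.4 before the neuron stage and at 54.8 to 72.4 in neurons, while the 3-nt exon falls from above 80 to below 30.

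These 3 Ncam1 exons were called between NPCs and neurons in both genotypes, that is, the PSI differed by more than 10 points with a posterior probability above 0.95. They were 3 of 5 member exons tested in WT, where 6.48% of all exons tested were called. In slow/slow they were joined by the Nrcam 30-nt exon, which went from 46.2, 38.5 and 39.7 to 59.3, 65.8 and 58.7, giving 4 of 8, where 3.72% were called. No Nrcam exon passed the filters for this step in WT. The genotypes therefore cannot be compared in this change of the Nrcam exon. In the limma test the slow/slow 15-nt exon of Ncam1 missed the threshold (limma adjusted p = 0.133). It passed with the replicate number as a block (limma adjusted p = 0.0101).

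The 2 short exons of L1cam, of 15 and 12 nt, are known as neuron-specific. They were included at 96.9 to 99.5 and at 99.0 to 99.7 in the 6 neuron libraries. In NPCs they were at 0 to 20 and 0 to 27.5, on 5 to 16 reads per library, mostly below the coverage filter, so that no test was made. In slow/slow PSA-NCAM+ replicate 3 they reached 51.2 and 76.4, on 24 and 25 reads.

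No member exon was called between ESCs and NPCs or between NPCs and PSA-NCAM+ cells, with 3 to 6 exons tested in each genotype. The limma test called none of them, but over all exons it called 0.0485% in WT and 0% in slow/slow from NPCs to PSA-NCAM+ cells, so that its result there says little, and 1 of 3 exons had an unadjusted limma p under 0.05 from ESCs to NPCs in each genotype. By the posterior, 2.42% and 1.36% of all exons tested were called in these steps in WT, and 0.763% and 0.794% in slow/slow. Between genotypes no member exon was called in ESCs (3 tested), NPCs (5 tested) or PSA-NCAM+ cells (3 tested), and limma gave unadjusted p under 0.05 for 1, 0 and 0 of them and called none. The share of all exons called by the posterior was 0.809%, 2.93% and 0.966%, and that called by limma 0.372%, 2.43% and 0.00822%.

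In neurons 32 member exons were tested between genotypes and 5 were called, 4 lower and 1 higher in slow/slow, where 1.56% of all exons tested were lower and 1.99% higher. The Ncam1 801-nt exon was at 55.95 ± 1.34 against 71.5 ± 0.84 in WT, a difference of -15.5 points (SD, n = 3 each; limma adjusted p = 0.000188). The Nfasc 15-nt exon was at 87.0, 86.5 and 82.8 in WT and 59.3, 62.8 and 69.7 in slow/slow, a difference of -21.6 points (limma adjusted p = 0.00276). The libraries of the genotypes did not overlap in either exon.

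Nrcam carried the other 3 called exons. The 36-nt exon was at 35.5, 26.99 and 31.9 in WT and 13.2, 11.2 and 12.7 in slow/slow (limma adjusted p = 0.00323). The 30-nt exon was at 82.3, 73.7 and 77.9 in WT and 59.3, 65.8 and 58.7 in slow/slow (limma adjusted p = 0.0185). The 18-nt exon went up, from 38.5, 44.8 and 40.6 to 52.5, 48.4 and 55.2, but its difference of 10.8 points was near the threshold. It was not called by limma without the block (adjusted p = 0.0530) or without 1 of 4 libraries, WT or slow/slow replicate 1 or 3.

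The Nrcam 12-nt exon, whose sequence resembles that of L1cam, was at 9.6, 10.7 and 13.7 in WT and 1.9, 2.4 and 1.8 in slow/slow neurons. Its difference of -9.31 points was inside the threshold of 10, with limma adjusted p = 0.00438, and was past it without WT replicate 1 (-10.2 points). The L1cam counterpart was near full inclusion in both genotypes (99.63 ± 0.03 in WT and 99.38 ± 0.35 in slow/slow, SD, n = 3). None of 9 L1cam exons tested in neurons was called, and 3 of 9 in Nrcam, 1 of 6 in Nfasc, 1 of 5 in Ncam1 and none of the single exons tested in Chl1, St8sia2 and St8sia4.

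**Figure D4:**
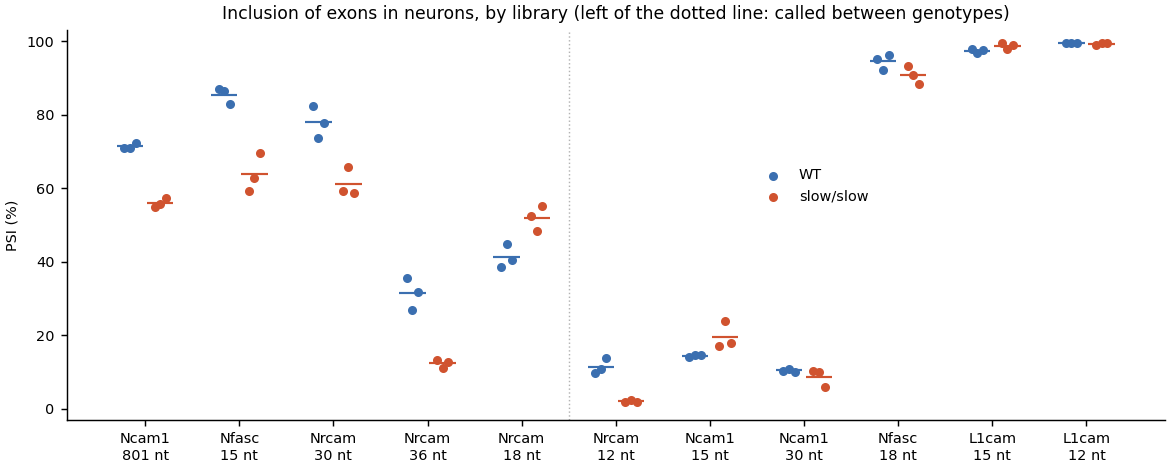
PSI of 11 exons in the 6 neuron libraries, with points for libraries and lines for means, and called exons left of the dotted line. The Nfasc 15-nt exon is at 82.8 to 87.0 in WT and 59.3 to 69.7 in slow/slow, while both L1cam exons are above 96 in all 6.

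A group of 3 further Nfasc exons, of 237, 117 and 153 nt, did not pass the balance filter and was not tested. Their PSI in WT neurons was 59.6 to 72.8, 27.9 to 37.0 and 27.4 to 39.4, on 151 to 293 reads. In slow/slow neurons it was 22.1 to 30.04, 12.1 to 14.5 and 11.8 to 14.5, on 58 to 207 reads. The WT libraries were above the slow/slow ones for each of these exons. The same held, untested, for an Nrcam exon of 126 nt, at 13.1 to 15.8 in WT and 4.97 to 6.21 in slow/slow, and for one of 153 nt, at 13.6 to 16.4 and 5.27 to 11.5. The Nrcam 156-nt and Nfasc 109-nt exons were at 87.7 ± 0.3 and 87.3 ± 0.7 in WT and 95.7 ± 3.9 and 92.2 ± 2.8 in slow/slow (SD, n = 3) and were not called. A Chl1 exon of 98 nt, at 22.5 to 29.4 in WT and 28.3 to 29.8 in slow/slow, did not pass the filters.

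Introns of the 8 genes gave 264 tested values over the 10 comparisons, and none was called at more than 10 points, 2 having a posterior above 0.95 at a smaller difference, where 0.334% of all intron values were called. Of the 58 tested values of alternative splice sites, 4 were called, all at the Ncam1 acceptor described above, where 0.486% of all such values were called.

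The other genes of the pathway were given by list. Of 5 genes of sialic acid synthesis and transport, 3 were lower in slow/slow neurons and none higher, where 28.4% of all genes tested were lower and 23.4% higher, which holds for the other lists in neurons too. These were Gne, which starts the synthesis of sialic acid (45.1 to 27.3 CPM, log2 difference -0.73 ± 0.12), Cmas, which activates it (133 to 81.0 CPM, -0.72 ± 0.07) and Nans, its synthase (61.6 to 43.0 CPM, -0.52 ± 0.08). Of 4 other alpha-2,8-sialyltransferases, 3 were lower and none higher, among them St8sia3 (71.2 to 28.8 CPM, -1.31 ± 0.29). Of 4 ankyrins and doublecortin, 3 were lower, led by Ank2 (184 to 90.9 CPM, -1.02 ± 0.09). Of 6 contactins, 3 were lower and 1 was higher, Cntn2 (39.6 to 181.6 CPM, 2.20 ± 0.26).

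The same lists were counted at the earlier stages. Of the ankyrins and doublecortin, 3 of 4 were higher in slow/slow NPCs and 1 was lower, where 29.3% of all genes were higher. In PSA-NCAM+ cells 4 of 4 were higher, where 28.6% of all genes were, led by Dcx (1.96 to 16.3 CPM, 3.09 ± 0.53). Of the sialic acid genes, 2 of 5 were higher and 1 lower in NPCs. St8sia3 was higher in slow/slow NPCs (0.977 to 7.82 CPM, 3.00 ± 0.34) and lower in neurons. All 6 contactins and all 4 ankyrins and doublecortin rose from NPCs to neurons in both genotypes, where 41.4% of all genes rose in WT and 38.4% in slow/slow. Of 6 extracellular partners and co-receptors, 3 were higher and 1 lower in slow/slow neurons, the latter Ptprz1, a receptor phosphatase (191 to 78.8 CPM, -1.28 ± 0.21). Of 2 sialidases tested, Neu1 was lower in slow/slow at all 4 stages, where 21.9% of all genes were lower in ESCs and 28.4% in neurons. Neu3 was lower too in PSA-NCAM+ cells (5.51 to 4.03 CPM). The share of all genes lower in NPCs and PSA-NCAM+ cells is not given, so counts of lower genes at those stages are descriptions. Of 3 sheddases 2 were higher and 1 lower in neurons.

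Across the 24 libraries, the genes whose log2 CPM was most like that of a member were Ptprz1 for Ncam1 (Pearson r = 0.989), Magee1 for Ncam2 (0.989), Lbh for St8sia2 (0.988), Dpysl3 for St8sia4 (0.989), Arhgap33 for L1cam (0.99) and Nfasc (0.994), Gpm6b for Nrcam (0.991) and Narf for Chl1 (0.986). The points share their stage, so such values mostly describe the rise in neurons. Between members, Ncam1 and Ncam2 had r = 0.972.

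Ncam1 lies on chromosome 9 (49502136 to 49798925, GRCm38, minus strand) and overlaps the antisense gene Gm11149. L1cam lies on chromosome X (73853778 to 73896105, minus strand) and overlaps Arhgap4 on its strand and Avpr2 on the other. Whether counting used strand is not stated, so reads of these genes could have been split or shared. The other 6 genes overlap no other gene of the expression table.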

How the data were processed

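RNA was measured in 24 samples (3 per genotype and stage; 75-nt paired-end, poly(A)+ libraries). From vast-tools version 1 (mm9), the authors deposited gene-level read counts, unnormalized, the mean RPKM of each group, and PSI in percent with corrected inclusion and exclusion reads per splicing event; per the labels, bcl2fastq 2.17.1.14 and edgeR were used. A second splicing table, with the authors' pooled PSI and differential calls, was not used.

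Of 22667 genes, 1114 had no value and 16627 passed filterByExpr. Counts were tested in 1 model of 8 groups with edgeR 4.0.16 (TMM, quasi-likelihood F test, Benjamini-Hochberg adjustment over all genes tested, threshold 0.05). SE is the log2 difference divided by the square root of F. Splicing used the study's coverage and balance filters in all 6 samples compared. Events of the microexon type had a blank balance score and met the coverage filter only. Calls used pooled beta posteriors of the reads (difference over 10 points, posterior over 0.95), and limma 3.58.1 on logit reads was the alternative. Both were run on simulated data with known changes first. P-values measure the spread between separate differentiations of 1 line per genotype. No libraries were identical.

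The members, lists and tests were chosen with earlier results of these data known. All 8 members are named in every comparison, exons where called or at a mean PSI between 10 and 90 (here given for neurons, where reads allowed it), and up to 3 genes per list by size of change. Of the markers fixed, Sox1 and Map2 were not used. Likeness used a prior count of 2.

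Same-numbered WT and slow/slow PSA-NCAM+ samples deviated together from their group means (r = 0.540, 0.455 and 0.401 across genes). Their numbers were taken as pairs only in the blocked fit, run as an alternative. The edgeR adjusted p and SE given for that stage come from the main model, which had no block. At the other stages the mean r was between -0.0514 and -0.0186. The median SD of log2 CPM was 0.238 and 0.315 in WT and slow/slow PSA-NCAM+ cells and 0.0776 to 0.128 in the other groups.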

Additional observations from a re-analysis of the deposited data

Results flagged for a closer look

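The genotype difference changed between stages, by an interaction term in edgeR, in 9 cases. From ESCs to NPCs it moved by 4.60 ± 0.47 log2 units for St8sia2 (SE, edgeR adjusted p = 1.02e-06). From NPCs to neurons it moved by -1.69 for Ncam1, -2.78 for St8sia2, -1.22 for St8sia4, -1.39 for L1cam, -1.60 for Nrcam and -6.96 for Ncam2, the last against WT NPC libraries without a count, so that its size depends on the prior count. From NPCs to PSA-NCAM+ cells it moved by 1.12 ± 0.28 for Nfasc (edgeR adjusted p = 0.0105) and by -4.06 for Ncam2 (edgeR adjusted p = 0.0498), whose size and sign depend on the prior count for the same reason, and which rests on 0 to 29 counts per library and was not called with the replicate number as a block (adjusted p = 0.0597). With the spread of these samples alone, Nfasc was not called either (adjusted p = 0.110). Groups of 3 samples were not tested for single samples that stand apart.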

How the results depend on the processing

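No single gene or exon reversed its direction with a call under any alternative, and 33 of 167 single results changed their call under at least 1. Shares of all genes called were taken in the main model only, so counts of genes under the alternatives are descriptions. DESeq2's Wald test called 4 of 8 members between genotypes in ESCs, 2 for the change of the genotype difference from ESCs to NPCs and 1 of 5 for that from NPCs to PSA-NCAM+ cells, against 2, 1 and 2. Using only the samples of the groups compared gave 4 in ESCs, 4 in PSA-NCAM+ cells, 0 of 5 from NPCs to PSA-NCAM+ cells in slow/slow, and 4 and 0 for those changes of the genotype difference. Without a filter on low counts, and with the replicate block, the change from NPCs to PSA-NCAM+ cells counted 1. The block paired same-numbered samples of the genotypes at each stage, or of the stages within a genotype. For changes of the genotype difference it was the replicate number alone. It changed no other call of a gene, and in limma it called 5 member exons between genotypes in neurons. Leaving out 1 library gave 5 to 8 members between genotypes in NPCs, 2 to 5 of 5 from NPCs to PSA-NCAM+ cells in slow/slow, 1 to 2 for the change of the genotype difference from ESCs to NPCs and 1 to 3 for that from NPCs to PSA-NCAM+ cells. It gave 0 to 1 member exons between genotypes in NPCs (Nfasc 45 nt, without WT replicate 1) and 0 to 1 from ESCs to NPCs in slow/slow (Ncam1 801 nt, without slow/slow replicate 1). Before the neuron stage, junction reads per library were often under 50, which limits exon calls there.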
